A study of Mus musculus with 14 samples.

Results

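The genes described here are the nuclear genes that encode subunits of the mitochondrial complexes of oxidative phosphorylation. They were chosen by name, as every symbol beginning with Nduf and a subunit letter, Sdh, Uqcr, Cyc1, Cox4 to Cox8 or Atp5 that the deposited count tables hold, and 11 pseudogene symbols were left out. The rule found 89 of 55892 symbols, 87 of them in the table of the progenitor experiment and 89 in that of the postmitotic experiment. Enough counts for a test were present for 81 of these genes in the progenitor experiment and for 84 in the postmitotic experiment. Cox7b2, Cox8b, Cox8c and Ndufa11b, with at most 9 counts in any library, were tested in neither experiment. Ndufb4c (at most 5 counts) and Ndufs5 (0 counts) were not tested in the progenitor experiment, Cox6c2 (at most 12 counts) not in the postmitotic one, and Cox6c2 and Ndufs6b have no row in the progenitor table.

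Polyadenylated RNA was sequenced from layer II/III of mouse cerebral cortex, microdissected at postnatal day 5, to ask how loss of Lhx2, a LIM-homeodomain transcription factor, acts on the dendrites of these neurons. Progenitors of Lhx2lox/lox embryos received Cre-EGFP (4 libraries labelled mutant) or EGFP alone (4 controls) by in utero electroporation at E15.5, which is the progenitor experiment. For the postmitotic experiment, EGFP was electroporated in NexCre/+; Lhx2lox/lox embryos (3 libraries labelled mutant) or Lhx2lox/lox embryos (3 controls). All groups thus carried the floxed Lhx2 allele and an EGFP label. NexCre is a Cre allele at the Neurod6 locus, active in young excitatory neurons, and electroporation reaches only some of the cells in a microdissected layer. The labels do not state whether libraries stem from different animals, and p-values then cover only the spread between these libraries, which may be technical. In bulk tissue, fewer cells of a type and less RNA per cell cannot be told apart.

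Oxidative phosphorylation is the chain of protein complexes in the inner mitochondrial membrane that turns the energy of reduced carriers into ATP. Complex I (NADH dehydrogenase) and complex II (succinate dehydrogenase) pass electrons to coenzyme Q, complex III passes them to cytochrome c and complex IV (cytochrome c oxidase) to oxygen, and complex V (ATP synthase) uses the resulting proton gradient. Most subunits are encoded in the nucleus, the others in mitochondrial DNA, and neurons depend on the pathway for ion pumping and synaptic work.

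Promoter sequence was read for 65 of the 81 genes tested in the progenitor experiment, from RefSeq on build GRCm38.p6, as the 250 bases before the annotated start. GABP and YY1 are transcription factors known to act at promoters of such genes. The GABP motif CCGGAAGT, searched on both strands, was present in 3 of the 65 promoters (4.62%, against 3.23% of 27025 genes with an entry), and AAGATGGC of YY1 in 1 (1.54%, against 1.83%). Both were found in 0 of the 15 promoters of genes that passed the test. A match describes letters and shows no binding, and a missing match says only that these letters are not in the window. An NRF1 motif, also searched, was more frequent among the members than among all genes and was dropped after its result was seen, so the shares of these 2 motifs are not a full account. The sequences shown belong to the gene of each complex with the smallest p among those called lower and with an entry, because the results turn on these genes. Each is written 5′ to 3′ on the gene's own strand.
Ndufa11: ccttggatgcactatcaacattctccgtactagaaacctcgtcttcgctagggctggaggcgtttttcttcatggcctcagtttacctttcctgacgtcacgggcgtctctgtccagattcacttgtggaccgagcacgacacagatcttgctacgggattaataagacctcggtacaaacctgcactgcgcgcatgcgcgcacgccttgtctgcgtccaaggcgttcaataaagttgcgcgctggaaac
Sdhd: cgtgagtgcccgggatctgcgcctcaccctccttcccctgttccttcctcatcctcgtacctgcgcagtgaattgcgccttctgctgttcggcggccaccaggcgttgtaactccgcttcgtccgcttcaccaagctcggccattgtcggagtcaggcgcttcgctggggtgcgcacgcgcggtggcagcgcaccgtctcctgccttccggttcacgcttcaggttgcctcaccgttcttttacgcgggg
Uqcrc1: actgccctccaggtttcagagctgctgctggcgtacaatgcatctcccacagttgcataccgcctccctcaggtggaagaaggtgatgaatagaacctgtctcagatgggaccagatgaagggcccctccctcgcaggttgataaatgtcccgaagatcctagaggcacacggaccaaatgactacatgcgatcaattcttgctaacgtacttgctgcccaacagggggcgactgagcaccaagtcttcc
Cox8a: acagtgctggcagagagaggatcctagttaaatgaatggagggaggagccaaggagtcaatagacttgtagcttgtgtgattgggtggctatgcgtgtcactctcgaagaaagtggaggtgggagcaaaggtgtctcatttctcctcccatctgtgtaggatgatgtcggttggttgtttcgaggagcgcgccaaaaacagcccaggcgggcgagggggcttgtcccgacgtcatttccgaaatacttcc
Atp5md: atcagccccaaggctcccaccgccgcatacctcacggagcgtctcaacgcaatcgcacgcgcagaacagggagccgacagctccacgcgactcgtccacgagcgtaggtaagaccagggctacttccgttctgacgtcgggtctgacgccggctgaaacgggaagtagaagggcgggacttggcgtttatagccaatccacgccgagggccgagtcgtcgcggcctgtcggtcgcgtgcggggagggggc
Their positions are chr17:56717512-56717761 (plus strand) for Ndufa11, chr9:50603850-50604099 (minus strand) for Sdhd, chr9:108936398-108936647 (plus strand) for Uqcrc1, chr19:7217617-7217866 (minus strand) for Cox8a, chr19:47090648-47090897 (minus strand) for Atp5md.

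Progenitor libraries labelled mutant held 22677019 to 24002981 counts in all. Totals ran from 24947089 to 29497595 in their controls, and from 21605777 to 25891416 in the postmitotic experiment. Lhx2 itself was not lower in either set labelled mutant. It averaged 129.5 CPM (counts scaled to a common library size) in progenitor libraries labelled mutant and 127.5 CPM in their controls, with a log2 fold change of 0.02 ± 0.07 (SE). Postmitotic Lhx2 averaged 179 CPM in libraries labelled mutant and 146.6 CPM in controls, a log2 fold change of 0.29 ± 0.06, and its adjusted p was 0.0276 (edgeR quasi-likelihood test, Benjamini-Hochberg). Y-linked transcripts exceeded 1 CPM in 3 of 4 progenitor libraries labelled mutant and in 0 of 4 of their controls, and their part in the results there was not tested apart from a fit with their presence as a covariate. The split was 1 of 3 and 2 of 3 in the postmitotic experiment. Xist, the X-linked transcript of female cells, was at 1658, 8.02, 554 and 0.13 CPM in progenitor libraries 1 to 4 labelled mutant. Their controls held 795 to 1245 CPM. Library 3 labelled mutant held both, with 99.4 CPM of Y-linked transcripts, and the covariate counts it with libraries 2 and 4. Libraries of a group that differ in these transcripts cannot all stem from the same animal.

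Progenitor control 1 stood apart from the other libraries for these genes. It held the highest value of all 8 libraries for 75 of the 81 members, and its median log2 distance from the control mean was 0.21. The medians of controls 2 to 4 were -0.11, -0.02 and -0.08, and those of libraries 1 to 4 labelled mutant were -0.20, -0.17, -0.11 and -0.15. Control 2 thus lay at the level of library 3 labelled mutant. Control 1 was also high for other genes with short transcripts. Its summed CPM were 113.43% of the control mean for cytosolic ribosomal proteins and 111.24% for mitochondrial ones, and the median distance of 156 genes with under 1000 exon bases was 0.17. The part of this library in the results was measured by leaving it out, and the values with and without it stand side by side.

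**Figure D1:**
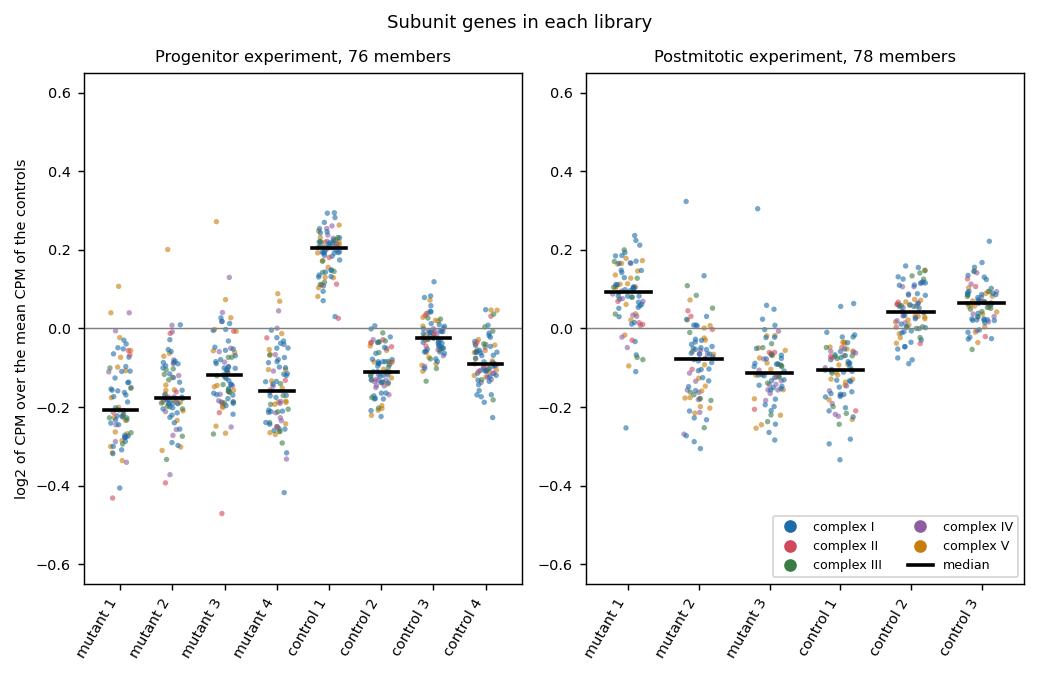
Each point is a subunit gene averaging at least 5 CPM in the controls, plotted as the log2 of its CPM over the mean CPM of the controls of the same experiment (vertical axis) in each library (horizontal axis), coloured by complex, with the median as a black bar. The median of progenitor control 1 lies above that of every other progenitor library, and in the postmitotic experiment library 1 labelled mutant is high while control 1 is low.

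In the progenitor experiment, genes of all complexes fell by a small amount in the libraries labelled mutant, and none rose. Of 81 tested, 19 fell and 0 rose at an adjusted p under 0.05, which is 23.5% lower, against 11.4% of 15295 tested genes lower and 12% higher (23.4% in either direction). The share called was thus near that of all genes, and the members' calls were all on the low side. The median log2 fold change was -0.15, against 0.00 over all tested genes, and 75 of the 81 were below 0, against 49.2% of all. The CPM of the groups did not overlap, with the libraries labelled mutant lower, for 30 members, against 13.3% of all tested genes, and for 0 with the libraries labelled mutant higher, against 13.7%. Summed over all members, the libraries labelled mutant held 8189, 8375, 8623 and 8369 CPM, against 10615, 8789, 9165 and 9010 CPM in controls 1 to 4. The sums did not overlap, and the lowest control lay just above the highest library labelled mutant.

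Without control 1 the median of every complex stayed below 0 and lay nearer to it. Of 81 members, 13 then fell and 1 rose, against 9.46% of 15426 tested genes lower and 11% higher, the median was -0.08 and 66 were below 0. All of these 13 were among the 19. Without controls 1 and 2, the counts were 6 lower and 1 higher, with a median of -0.11. That is 7.41% lower, against 4.68% of all tested genes. Leaving out library 1 labelled mutant gave 7 lower (8.64%, against 7.17% of all tested genes), and leaving out library 4 gave 9 (11.1%, against 9.08%). These shares were near those of all genes. Without library 2 labelled mutant 12 were lower (14.8%, against 9.1%), without library 3 there were 11 (13.6%, against 7.36%), and without control 4 there were 13 (16%, against 7.88%). Without control 2, 21 were lower (25.9%, against 8.59%), and without control 3, 19 were lower and 1 higher (23.5% lower, against 11.9%). With the presence of Y-linked transcripts as a covariate, Sdhd was the only member that still passed (1.23% of members, against 2.71% of all tested genes).

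**Figure D2:**
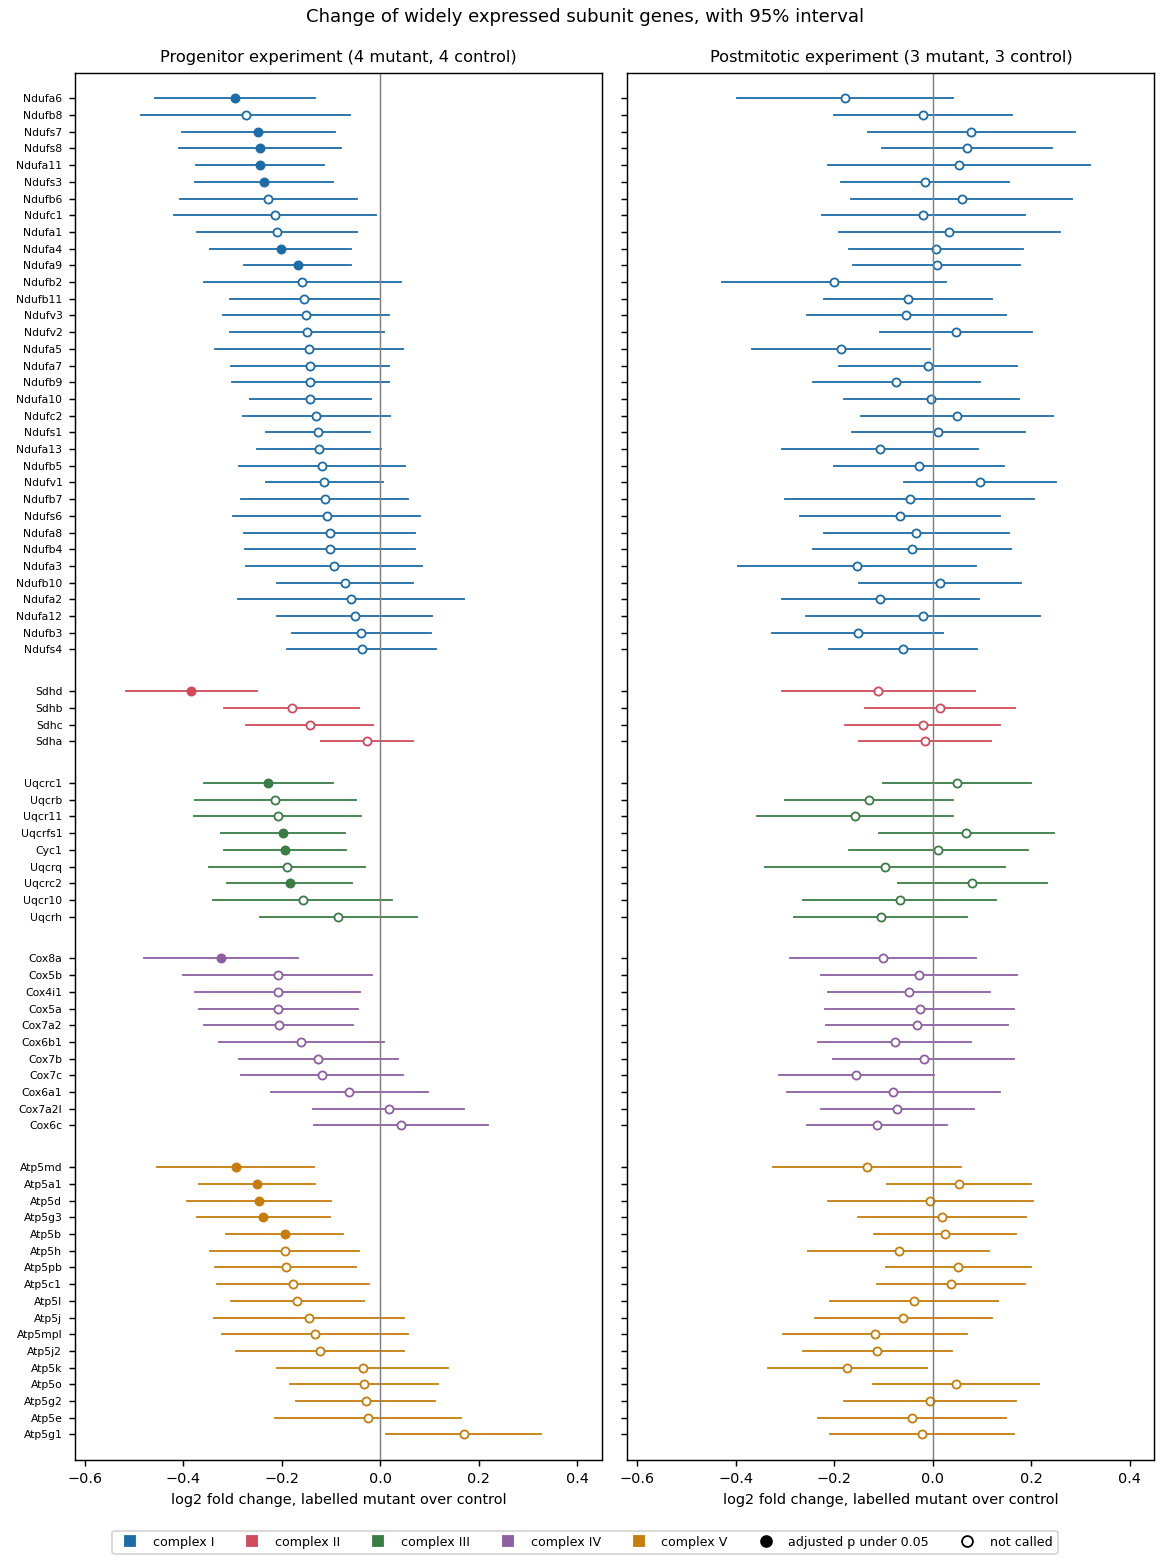
Log2 fold change, libraries labelled mutant over control (horizontal axis), of widely expressed members grouped by complex (vertical axis) in both experiments, with 95% intervals; filled points have an adjusted p under 0.05. Filled points occur only on the low side of the progenitor panel, and the postmitotic intervals are centred near 0.

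Complex I, the entry point for electrons from NADH, was tested with 36 genes in the progenitor experiment. Of these, 7 fell, 0 rose and 35 were below 0, with a median log2 fold change of -0.14 (-0.07 without control 1, with 4 lower). The share called lower was 19.4%, against 11.4% of all tested genes, and 11.1% without control 1, near the 9.46% of all genes there. Of the 7 catalytic core genes, which carry the flavin and the iron-sulfur clusters or frame them, 3 fell. These were Ndufs3 (-0.24 ± 0.06), Ndufs7 (-0.25 ± 0.07) and Ndufs8 (-0.24 ± 0.07), while Ndufv1 (-0.11 ± 0.05) and Ndufs1 (-0.13 ± 0.05) did not pass. Without control 1, Ndufs3 and Ndufs7 were still called and Ndufs8 was not. Of the accessory genes of the arm that reaches into the matrix, Ndufa6 (-0.30 ± 0.07) and Ndufa9 (-0.17 ± 0.05) fell, 2 of 9, and the call of Ndufa9 was lost without control 1. Of the 18 accessory genes of the membrane arm, 1 fell, Ndufa11, whose product sits in the membrane arm.

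Ndufa11, on chromosome 17, had 52.2, 50.1, 54.2 and 51.6 CPM in libraries labelled mutant and 64.7, 60.7, 65.3 and 55.8 CPM in controls. The groups did not overlap, and control 3 rather than control 1 was the highest. Its log2 fold change was -0.24 ± 0.06 (SE) with adjusted p = 0.0134 (edgeR quasi-likelihood test, Benjamini-Hochberg), and -0.22 ± 0.06 without control 1. Its exons overlap Vmac on the opposite strand, and reads from the pair cannot be told apart where counting ignored strand.

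Ndufa4 carries a complex I symbol, but its product is a subunit of complex IV. It averaged 149 ± 5.24 CPM in libraries labelled mutant and 171 ± 16.5 CPM in controls (SD, n = 4 each), a fall of 0.20 on the log2 scale that was no longer called without control 1. Its rarer paralog Ndufa4l2, which is induced by low oxygen, averaged 3.26 ± 0.55 CPM in libraries labelled mutant and 2.27 ± 0.63 CPM in controls, with a log2 fold change of 0.52 ± 0.21 that did not pass. The X-linked members Ndufa1 (-0.21 ± 0.07), Ndufb11 (-0.15 ± 0.07) and Cox7b (-0.13 ± 0.07) did not pass either.

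Complex II is encoded by the nucleus alone and links the respiratory chain to the citric acid cycle. Sdhd, its small membrane anchor, had the smallest p of all members. It had 58.7, 60.3, 57.1 and 66.6 CPM in libraries labelled mutant and 85.5, 77.2, 76.7 and 77.2 CPM in controls. Every control lay above every library labelled mutant, and controls 2 to 4 lay within 1 CPM of each other. The log2 fold change was -0.38 ± 0.06 (SE), with adjusted p = 0.0015 (edgeR quasi-likelihood test, Benjamini-Hochberg), and -0.34 ± 0.06 without control 1. In the authors' deposited table the log2 fold change of Sdhd was -0.39.

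The other complex II genes did not pass the test. Sdhb, the iron-sulfur subunit, was at -0.18 ± 0.06 and Sdhc, the other anchor, at -0.14 ± 0.06. Sdha, the flavoprotein that oxidises succinate, averaged 175 ± 3.28 CPM in libraries labelled mutant and 178 ± 4.11 CPM in controls, with a log2 fold change of -0.03 ± 0.04. No test compared subunits with each other.

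**Figure D3:**
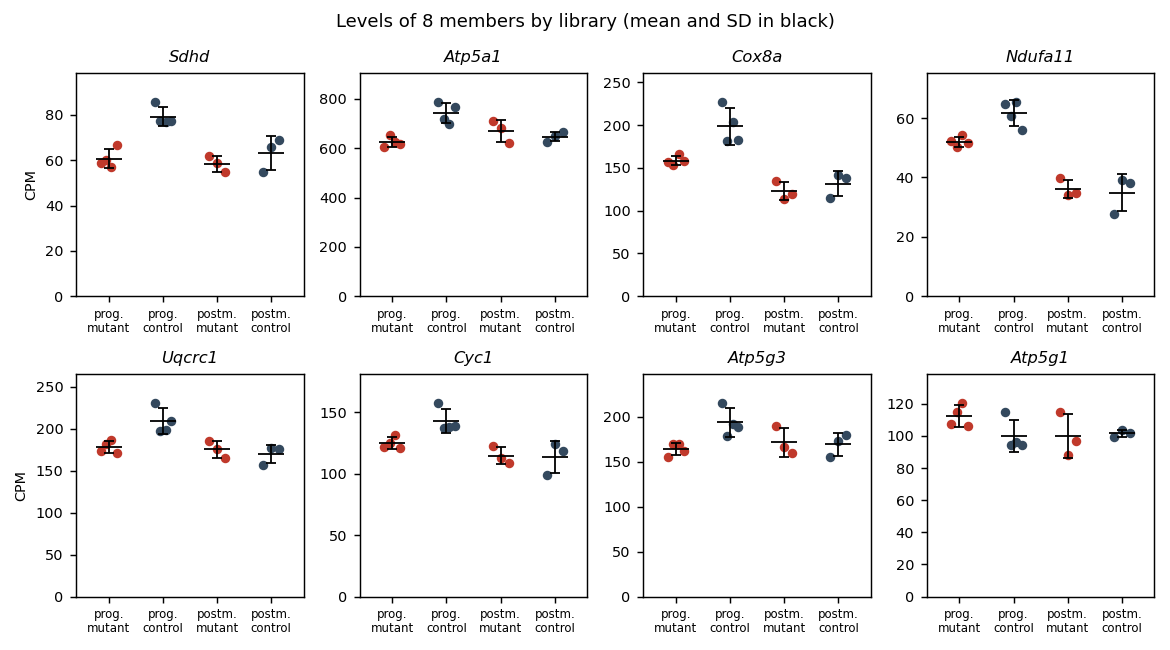
CPM (vertical axis, from 0) of 8 members in every library, by experiment and label (horizontal axis), with the mean and SD in black. Sdhd, Atp5a1, Cox8a, Ndufa11, Uqcrc1, Cyc1 and Atp5g3 separate the progenitor groups, with the libraries labelled mutant lower, while Atp5g1 runs the other way apart from control 1.

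Complex III, the cytochrome bc1 complex, had 4 of 9 genes lower, and all 9 were below 0, with a median of -0.19 (-0.14 without control 1, with 2 lower). The share was 44.4%, against 11.4% of all tested genes, and 22.2% without control 1, against 9.46%. The genes that fell were Uqcrc1 (-0.23 ± 0.06) and Uqcrc2 (-0.18 ± 0.06), the large core proteins, and the redox subunits Uqcrfs1 (-0.20 ± 0.06), the Rieske iron-sulfur protein, and Cyc1 (-0.19 ± 0.06), cytochrome c1. Uqcrc1 had 174, 182, 187 and 171 CPM in libraries labelled mutant and 231, 197, 198 and 210 CPM in controls. Cyc1 had 122, 125, 131 and 121 CPM in libraries labelled mutant and 158, 137, 138 and 139 CPM in controls. Neither gene's groups overlapped, and in both control 1 was the highest library. Of the 5 small subunits 0 passed, although all were below 0, from -0.09 for Uqcrh to -0.21 for Uqcrb. Without control 1, Uqcrc1 and Cyc1 were still called, and Uqcrc2 and Uqcrfs1 were not.

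Complex IV, which reduces oxygen, was tested with 15 genes, of which 2 fell, with a median of -0.16 (-0.04 without control 1, with 1 lower). The share called, 13.3%, or 6.67% without control 1, was near or under that of all tested genes (11.4%, or 9.46% without control 1). Cox8a, a small membrane subunit, had 157, 153, 167 and 158 CPM in libraries labelled mutant and 227, 181, 204 and 182 CPM in controls. The groups did not overlap, and the controls were more widely spread than the libraries labelled mutant. The log2 fold change was -0.32 ± 0.07 (SE), with adjusted p = 0.00824 (edgeR quasi-likelihood test, Benjamini-Hochberg), and -0.25 ± 0.05 without control 1. Of the 10 widely expressed isoforms 9 were below 0, among them Cox4i1 (-0.21 ± 0.08), Cox5a (-0.21 ± 0.07) and Cox7a2 (-0.21 ± 0.07), which did not pass. Cox6c, at 0.04 ± 0.08, and the supercomplex factor Cox7a2l, at 0.02 ± 0.07, did not differ beyond their error.

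The muscle- and lung-type isoforms were rare. Cox6a2, the heart and skeletal muscle isoform, had 2.74, 0.65, 2.53 and 1.95 CPM in libraries labelled mutant and 4.76, 4.69, 3.85 and 3.44 CPM in controls. The groups did not overlap, and the log2 fold change was -1.09 ± 0.33. The call was lost without control 1 (adjusted p = 0.0876, edgeR quasi-likelihood test, Benjamini-Hochberg). Per kilobase of exon, Cox6a1 made up 98.52% to 99.65% of the pair in libraries labelled mutant and 97.48% to 98.15% in controls. Cox4i2, Cox6b2 and Cox7a1 made up at most 1.77% of their sets in any progenitor library and were not called.

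Complex V, the ATP synthase, had 5 of 17 genes lower and a median of -0.17 (-0.10 without control 1, with 5 lower and 1 higher). The share called lower was 29.4% with and without control 1, against 11.4% and 9.46% of all tested genes. Of the 5 genes of the catalytic F1 part, 3 fell, Atp5a1 and Atp5b, which form the alternating ring, and Atp5d (-0.25 ± 0.07) of the central stalk. Atp5a1 had 604, 652, 626 and 617 CPM in libraries labelled mutant and 786, 721, 698 and 768 CPM in controls. The groups did not overlap. The log2 fold change was -0.25 ± 0.05 (SE), with adjusted p = 0.00721 (edgeR quasi-likelihood test, Benjamini-Hochberg), and -0.22 ± 0.05 without control 1. Atp5b, at 801 ± 13.9 CPM in libraries labelled mutant and 916 ± 58.5 CPM in controls, fell by 0.19. Atp5md, a small membrane subunit, fell by 0.29, and of the 4 genes of the peripheral stalk 0 passed, with values from -0.19 for Atp5h to -0.03 for Atp5o.

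The membrane ring of ATP synthase is built from 1 mature protein encoded by 3 genes, and their values lay on both sides of 0. Atp5g3 had 155, 170, 170 and 161 CPM in libraries labelled mutant and 216, 179, 191 and 188 CPM in controls, without overlap, and its log2 fold change was -0.24 ± 0.06. Atp5g1 had 108, 115, 121 and 106 CPM in libraries labelled mutant and 115, 94.3, 96.2 and 94.4 CPM in controls. All libraries labelled mutant lay above controls 2 to 4, and control 1 lay among them. Its log2 fold change was 0.17 ± 0.07 and not called with all libraries. Without control 1 it was 0.25 ± 0.05, with adjusted p = 0.0115 (edgeR quasi-likelihood test, Benjamini-Hochberg), which makes it the member that rose there.

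Shares within the ring do not depend on the scaling of a library. Per kilobase of exon, Atp5g1 made up 16.57% to 17.46% of the 3 genes in libraries labelled mutant and 13.57% to 14.45% in controls. The share of Atp5g3 ran from 55.22% to 57.82% in libraries labelled mutant and from 60.71% to 61.44% in controls. Neither share overlapped between the groups, and control 1 lay with the other controls. The postmitotic shares of Atp5g1 overlapped, at 13.55% to 15.19% in libraries labelled mutant and 14.28% to 15.76% in controls. These shares were examined after the values had been seen and carry no test.

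Per kilobase of exon and averaged over all 8 progenitor libraries, the most abundant members were Cox6b1 (303 CPM per kilobase), Cox8a (288) and Cox6a1 (283) of complex IV. Atp5a1 (218) and Atp5b (203) led complex V, Uqcr11 (135) and Uqcr10 (119) complex III, and Ndufa4 (116) and Ndufa1 (104) the genes with complex I symbols. Complex II was lowest, with Sdhd (56.8) and Sdhb (45.8) at its head. Of the leading genes, Cox6b1 (-0.16 ± 0.08), Uqcr10 (-0.16 ± 0.08) and Uqcr11 (-0.21 ± 0.08) did not pass the test of their log2 fold change.

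In the postmitotic experiment 0 of 84 members were called in either direction by edgeR's quasi-likelihood test, limma-voom or DESeq2, against 1.06% of 17775 tested genes lower and 0.895% higher (1.96% in either direction). At an unadjusted p under 0.05, 2 were lower, Atp5k (-0.17 ± 0.08) and Ndufa5 (-0.19 ± 0.08), against 5.95% of all tested genes, and 1 was higher, Ndufs5 (0.23 ± 0.09), against 5.43%. Groups did not overlap for 6 members with the libraries labelled mutant lower and for 0 with them higher, against 8.44% and 7.98% of all tested genes. The median log2 fold change was -0.03, and 55 of 84 were below 0, against 50.6% of all. Summed over all members, the libraries labelled mutant held 8298, 7471 and 7270 CPM, and the controls held 7228, 7986 and 8080 CPM. The sums overlapped, with library 1 labelled mutant the highest and control 1 the lowest.

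In the postmitotic experiment the median of every complex lay just below 0, from -0.07 for complex III to -0.02 for complexes I, II and V, while smaller groups lay on either side. Of the 7 core genes of complex I, 6 were above 0, from -0.02 for Ndufs3 to 0.10 for Ndufv1. All 10 widely expressed genes of complex IV were below 0, from -0.16 for Cox7c to -0.02 for Cox7b, as were the 5 small subunits of complex III. Sdhd was at -0.11 ± 0.09, with 61.9, 58.8 and 54.8 CPM in libraries labelled mutant and 54.6, 66.0 and 69.0 CPM in controls. Those groups overlapped. The 95% interval of its log2 fold change ran from -0.31 to 0.09, and that of Cox8a from -0.29 to 0.09.

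The change in the progenitor experiment minus that in the postmitotic experiment was tested for 83 members, and 1 was called, against 3.1% of 15643 tested genes lower and 3.84% higher (6.94% in either direction). This was Atp5a1, at -0.30 ± 0.08 (SE), with adjusted p = 0.036 (edgeR quasi-likelihood test, Benjamini-Hochberg). Its postmitotic values were 712, 681 and 623 CPM in libraries labelled mutant and 626, 652 and 664 CPM in controls, with a log2 fold change of 0.05 ± 0.07. This call was lost, with 0 members called, on leaving out progenitor library 1, 3 or 4 labelled mutant, progenitor control 1 or 4, postmitotic library 1 or 2 labelled mutant, or postmitotic control 1 or 2. The next members were Uqcrc1 (-0.28 ± 0.09), Uqcrc2 (-0.26 ± 0.09) and Ndufs8 (-0.31 ± 0.11), which did not pass. For the other 82 members no difference between the experiments was shown. Among them, Ndufs5 (0 counts in every progenitor library) and Ndufb4c (at most 5) had too few counts for a test in the progenitor experiment. Ndufs5 thus had no progenitor change to compare, and for this pair the result decides nothing.

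Genes that feed or build the chain were counted in the same way in the progenitor experiment. Of 17 glycolysis genes, 9 fell and 2 rose (median -0.20), among them Aldoa, aldolase A, at -0.50 ± 0.06, and Pfkp, a phosphofructokinase, at 0.35 ± 0.06. Of 22 genes of pyruvate use and mitochondrial carriers, 11 fell and 1 rose (median -0.19), with Slc25a11, the oxoglutarate carrier, at -0.28 ± 0.05. Of 17 genes of the citric acid cycle and its neighbours, 7 fell and 2 rose (median -0.14), with malate dehydrogenase Mdh1 at -0.38 ± 0.07 and pyruvate carboxylase Pcx, which replenishes the cycle and is known from astrocytes, at 0.53 ± 0.11. These are 52.9%, 50% and 41.2% lower, against 11.4% of all tested genes. Without control 1 these lists had 9 and 2, 7 and 1, and 6 and 2 genes lower and higher (52.9%, 31.8% and 35.3% lower, against 9.46% of all). The summed glycolysis CPM were 86.21% to 89.02% of the control mean in libraries labelled mutant and 95.12% to 107.13% in controls.

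Genes that assemble the complexes were counted next. Of 18 complex I assembly factors 1 fell, Ndufaf3 (-0.23 ± 0.07), of 4 complex II factors 1 fell, Sdhaf1 (-0.38 ± 0.09), and of 22 complex IV factors 2 fell, Coa3 (-0.24 ± 0.06) and Cox10 (-0.19 ± 0.06). Of 6 factors of complex III and 3 of complex V, 0 passed. Of 13 genes of coenzyme Q synthesis 3 fell, among them the hydroxylase gene Coq7 (-0.38 ± 0.09), and 1 was lower without control 1. The shares lower in the lists for complexes I and IV, 5.56% and 9.09%, were under the 11.4% of all tested genes, and that for coenzyme Q was 23.1%. Without control 1 the share lower for coenzyme Q was 7.69%, under the 9.46% of all tested genes there, and 1 of its genes was higher. Cycs, which encodes somatic cytochrome c and lies outside the name rule, was at -0.18 ± 0.06 and did not pass.

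Other large groups of housekeeping genes were counted as well. Of 37 proteasome genes 5 fell and 0 rose (median -0.13), and of 78 genes of the mitochondrial ribosome 7 fell and 2 rose (median -0.06). The shares lower, 13.5% and 8.97%, were near the 11.4% of all tested genes. Yet 36 of the 37 proteasome genes (97.3%) were below 0, against 49.2% of all tested genes. Their groups did not overlap for 12 with the libraries labelled mutant lower and for 0 with them higher, against 13.3% and 13.7%. A small fall on 1 side was thus not particular to the respiratory genes. Of the mitochondrial ribosome genes 67.9% were below 0. Of 79 genes of the cytosolic ribosome 0 fell and 1 rose (median 0.06), against 11.4% of all tested genes lower and 12% higher. Without control 1, 0 fell and 10 rose (12.7%, median 0.11), near the 11% of all tested genes higher there. Among 19 regulators of mitochondrial biogenesis 3 fell and 3 rose, and the share lower was 15.8%, near the 11.4% of all tested genes. Ppargc1b, a coactivator of the pathway, was at -0.55 ± 0.10 and Mterf3, a mitochondrial transcription regulator, at 0.52 ± 0.09. Of all these lists, 0 genes were called in the postmitotic experiment by edgeR's quasi-likelihood test, with at most 3 genes of a list lower and 2 higher at an unadjusted p under 0.05.

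**Figure D4:**
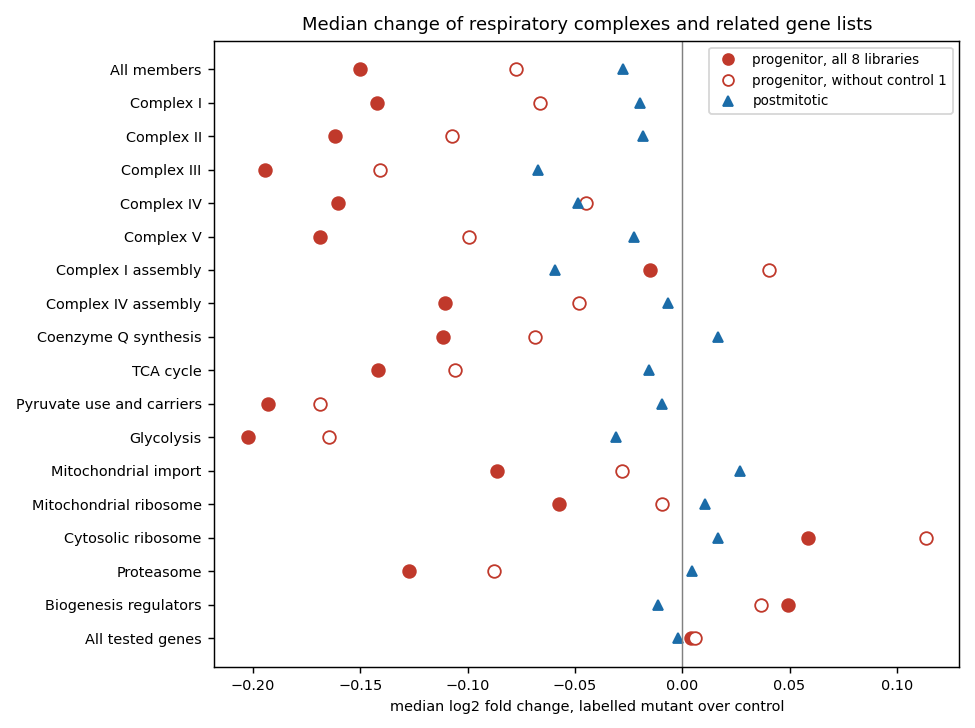
Median log2 fold change, libraries labelled mutant over control (horizontal axis), of each complex and related gene list (vertical axis), for the progenitor experiment with all 8 libraries (filled circles) and without control 1 (open circles), and for the postmitotic experiment (triangles). The progenitor medians of all complexes lie below 0 in both versions and shift towards 0 without control 1, while the cytosolic ribosome lies above 0.

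Marker genes of other cells differed between the progenitor groups as well. The counts called stand against 11.4% of all tested genes lower and 12% higher. In lists of 9 to 11 genes, 1 or 2 calls are near these shares. The summed CPM of 10 cycling progenitor markers ran from 287 to 405 in libraries labelled mutant and from 156 to 199 in controls. Much of this was Neurog2, at 63.4 to 210 CPM in libraries labelled mutant and 0.17 to 0.38 CPM in controls. The other 9 summed to 187 to 224 CPM in libraries labelled mutant and 155 to 199 CPM in controls. Of the 10 genes 9 were tested, and 5 of them rose, among them Neurog2 and Cenpf (0.52 ± 0.10). The groups did not overlap for 4 tested genes, with the libraries labelled mutant higher, and 2 tested genes were below 0. The sums of 10 astrocyte and radial glia markers were 1960 to 2363 CPM in libraries labelled mutant and 2302 to 2872 CPM in controls, and 4 of the 10 genes fell. Of these 10 genes, 6 were below 0 and 4 above it, and 1 was higher at an unadjusted p under 0.05. Deep-layer neuron markers summed to 320 to 509 CPM in libraries labelled mutant and 376 to 538 CPM in controls, with 2 of 9 lower, among them Nr4a2 (-2.07 ± 0.50). Interneuron markers summed to 282 to 323 CPM in libraries labelled mutant and 294 to 379 CPM in controls, with 2 of 10 lower. These were Gad1 (-0.33 ± 0.09) and Slc32a1 (-0.53 ± 0.10), genes of GABA synthesis and its vesicular transport. Of the 10 interneuron genes, 7 were below 0 and 3 above it, and 2 were higher at an unadjusted p under 0.05. The oligodendrocyte lineage sum was 535 to 621 CPM in libraries labelled mutant and 488 to 570 CPM in controls, with 3 of 9 higher. Among them were Cspg4 (0.46 ± 0.07) and Pdgfra (0.34 ± 0.05), markers of its precursors. The other 6 genes of this list were below 0 and not called, and the median of the list was -0.11. Microglia markers summed to 103 to 163 CPM in libraries labelled mutant and 132 to 201 CPM in controls, with 2 of 10 lower. Endothelial and mural markers summed to 373 to 531 CPM in libraries labelled mutant and 317 to 459 CPM in controls, with 3 of 10 higher. Upper-layer neuron markers summed to 3954 to 4212 CPM in libraries labelled mutant and 3979 to 4325 CPM in controls, and all 11 were detected. Of these, 1 fell, the vesicular glutamate transporter gene Slc17a7 (-0.78 ± 0.10), and 4 rose, among them the transcription factor gene Pou3f3 (0.37 ± 0.06). Marker genes also differed in the postmitotic experiment. Astrocyte and radial glia sums were 1102 to 1242 CPM in libraries labelled mutant and 1273 to 1396 CPM in controls, with 10 of 10 genes below 0 and 0 called. Deep-layer sums were 432 to 528 CPM in libraries labelled mutant and 390 to 397 CPM in controls, with 3 of 9 higher. Of 11 upper-layer markers 4 fell and 1 rose. The sums of the other lists named here overlapped there. The part of these cell types in the change of the respiratory genes was not tested.

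The authors' deposited tables, made with DESeq2, list 29 members as lower and 0 as higher in the progenitor experiment at an adjusted p under 0.05, against 12.9% of 16011 genes with an adjusted p lower and 11.9% higher. They list 0 members in the postmitotic experiment, against 1.21% of 15560 genes lower and 1.11% higher. All 19 genes called here were among those 29. The authors' postmitotic log2 fold changes were not all those found here, and some had the opposite sign. Atp5a1 was at 0.13 there and 0.05 here, Cox5a at 0.07 and -0.03, and Cox7b at 0.06 and -0.02. Cox7c was alike, at -0.15 there and -0.16 here. Whether that table rests on all postmitotic libraries was not tested.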

How the data were processed

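Polyadenylated RNA from 14 libraries was analysed. The authors deposited whole-number read counts per gene symbol, 1 table for each experiment. They also deposited DESeq2 tables with log2 fold changes and p-values, per the file headers. HISAT2, featureCounts, DESeq2 and build mm10 are named in the submitters' processing notes. Not given in the sources used here: tool versions, annotation and strand mode.

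The experiments were fitted separately in edgeR 4.0.16 (R 4.3.3), with filterByExpr, TMM scaling, glmQLFit with its robust option and glmQLFTest. Adjusted p-values are Benjamini-Hochberg over all tested genes, called under 0.05. Fold changes set libraries labelled mutant over control, CPM use TMM-scaled totals, the SE is the log2 fold change over the root of F, and intervals cover 95%. The difference between experiments is the interaction in 1 fit of 14 libraries over shared symbols. Exon lengths and positions are from GENCODE M21 (82 of 84 tested members matched); 25 of these overlap an exon on the opposite strand and 5 on the same strand, and processed copies elsewhere can share reads, so their counts are less certain. The steps were tested on simulated data.

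The members, lists and tests were chosen with earlier results of these data known. Named genes are Lhx2, the members with the smallest p or highest level per complex, all of complex II, isoform partners, X-linked members and up to 2 genes per list; Neurog2, the other marker genes, Ndufv1, Ndufs1, Ndufs8 and other members given as examples of a complex were named after their values were seen. Alternatives were DESeq2 1.42.0, limma-voom 3.58.1, other scaling, filters and thresholds, a replicate block, a Y-linked covariate, an exon length trend, thinned counts and left-out libraries. Those without control 1 plus another library were added after seeing the data. A search of the promoters for an NRF1 motif was also run and was dropped after its result was seen.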

Additional observations from a re-analysis of the deposited data

Results flagged for a closer look

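Progenitor control 1 was far from the other controls for several members. It was the separate sample among the 4 controls for Sdhd (85.5 CPM), Cyc1 (158 CPM), Ndufa4 (196 CPM), Ndufs3 (67.9 CPM) and Atp5g1 (115 CPM), and for the summed complex III genes (1183 CPM). Library 1 labelled mutant was separate from the other 3 for Cox5a (109 CPM). These are 7 of 106 groups of 4 values examined, and chance separates a sample in about 1 in 20.

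The change of Atp5a1 differed between the progenitor and the postmitotic experiment, by -0.30 on the log2 scale, in edgeR's quasi-likelihood test of the interaction. This call was lost on leaving out any of several single libraries of either experiment. The share of members called, 1.2%, was under the 6.94% of all tested genes called in either direction.

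The pseudogene Ndufs5-ps, which the name rule leaves out, reached 21.2 CPM in a progenitor library labelled mutant. Of the other libraries labelled mutant, library 1 held 10.05 CPM, library 3 held 12.5 CPM and library 4 held 0.22 CPM, and the controls held at most 0.585 CPM. Ndufs5 itself, a complex I subunit gene, is listed at 0 in all 8 progenitor libraries. In the postmitotic table Ndufs5 had 35.8, 43.2 and 42.6 CPM in libraries labelled mutant and 32.1, 34.8 and 36.6 CPM in controls, and Ndufs5-ps had 25.2, 8.10 and 7.73 CPM in libraries labelled mutant and 22.1, 23.5 and 22.9 CPM in controls. The unadjusted rise of Ndufs5 in the postmitotic experiment thus stands beside lower Ndufs5-ps counts in 2 of the 3 libraries, and how reads were divided between the pair was not tested.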

How the results depend on the processing

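With all 8 progenitor libraries, 19 members were lower. The count was 29 with DESeq2, 3 at an adjusted p under 0.01 and 6 (with 1 higher) without controls 1 and 2. Leaving out each library gave 7 to 21 lower and 0 to 1 higher. With the Y-linked covariate the label effect rested on library 1 labelled mutant against the controls, and no count is drawn from that fit. Without control 1 and any other library, 4 to 11 were lower and 0 to 2 higher. Other scaling, filters, thinning, limma-voom and 1 fit of all libraries gave 18 to 21, and removing an exon length trend 26. The median stayed below 0 throughout, from -0.19 to -0.08 with each library left out. For the difference between experiments, 1 member was lower, 4 with DESeq2, 8 with the exon length trend removed, 0 at an adjusted p under 0.01 and with the Y-linked covariate, and 0 to 3 with each library left out. In the postmitotic experiment 0 members were called under every alternative run, and its median ran from -0.09 to 0.01 with each library left out and was 0.04 with libraries 1 and 2 of each group. Same-numbered libraries did not deviate together (correlations from -0.445 to 0.076 in the progenitor and from -0.191 to 0.037 in the postmitotic experiment). Of 7, 1 correlated best with its own number. Correlations over so few libraries per group cannot exclude that the numbers pair libraries, and the labels do not say. With a replicate block 12 members were lower in the progenitor experiment and 0 for the difference. The cause of these shifts was not tested. Changes of 10% to 20% lie close to the spread of the controls, and rare isoforms rest on few counts.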
